A study of Homo sapiens with 10 samples.

Results

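RNA polymerase I makes the large ribosomal RNA precursor and RNA polymerase III makes 5S rRNA, tRNAs and other small RNAs. The genes described here encode subunits of both enzymes and factors that place or regulate them, in A375 cells, an established human melanoma line. Of 35 listed genes, 34 had a probe set among the 18569 on the array, chosen by gene symbol in the platform's annotation, and TAF1D was not analysed here. Each gene was represented by 1 probe set.

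RNA from 10 cell samples was hybridised to Clariom S arrays, 1 array per sample, after 4 days in culture. The control group (5 arrays) was A375 cells plated without doxycycline. The other group (5 arrays) was A375 cells plated with doxycycline at 2 µg/ml. The series title names Omomyc, a mutant MYC fragment that dimerises with MYC and MAX, but the labels describe no construct, clone or promoter, and no array is labelled as doxycycline without Omomyc, so an effect of the drug alone cannot be told apart from one of a transgene. The labels call the arrays biological replicas without saying what separated them, so p-values speak only to the spread among these 10 samples, part of which may be technical.

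Values are log2 expression signals normalised between arrays, so a change is read against the bulk of genes on an array and not per cell. Median signal was 5.02 to 5.10, and precision is limited by having 5 arrays a group. Doxycycline array 1 had the lowest mean correlation with the arrays of its own group (r = 0.991 over all probe sets, against 0.993 to 0.995 for the other doxycycline arrays), and member changes that it moved by over 1.5 times are also given without it. Of the melanoma markers, SOX10 (8.71 in control), S100B (7.58), MIA (9.41) and CSPG4 (8.75) had signals well above the lowest first quartile of any array, 2.80, whereas the pigment genes PMEL (2.49), MLANA (2.30) and TYR (1.83) were below it. The melanoma markers moved between the groups as well, 5 of 9 higher (55.6%, against 20.9% of all probe sets) and 1 lower (11.1%, against 17.2%). Among them were MITF (1.21 ± 0.08), S100A1 (0.86 ± 0.09), MIA (0.64 ± 0.10) and CSPG4 (-1.40 ± 0.12). TYR, at 1.83 in control and 2.05 with doxycycline, was counted among the 5 although its signal was below 2.80 in both groups. Among 8 measured markers of keratinocytes, fibroblasts, endothelium, leukocytes and epithelium, KRT5 and COL1A1 (25%, against 20.9% of all probe sets) were called higher. They rose by 0.39 and 0.32 log2 units, and 0 of the 8 were called lower in limma, or lower at an unadjusted p under 0.05. The summed linear signal of the 8 was 55.1 to 66.1 in control and 60.9 to 75.3 with doxycycline. All of them except COL1A1 (4.43) had mean signals below 2.80 in control, so the sum says little about other cell types. The part of either marker list in the results was not tested.

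At ribosomal DNA, UBTF coats the gene and selectivity factor SL1, made of TBP and TAF1 proteins, sits on the promoter, where RRN3 docks polymerase I. At tRNA genes, TFIIIC binds the internal A and B boxes and recruits TFIIIB, which then seats polymerase III. The 5S rRNA gene needs TFIIIA, the product of GTF3A, as the first factor to bind. MYC is known to raise output of both enzymes, in the case of polymerase III through contact with TFIIIB, and growing tumour cells depend on this supply of ribosomes and tRNAs.

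Promoter sequences are shown for GTF3A, because its signal fell most, and for 3 genes that hold the palindrome CACGTG, the core E-box bound by MYC and MAX, and that fell (POLR3C), rose (POLR1G) or were not called (POLR3E). Sequences come from RefSeq on GRCh38.p14, cover 250 bases before to 50 bases from the annotated start, and run 5′ to 3′ along the gene. Capitals mark CACGTG and, in POLR3E, GGTTCGA, the core of the B box inside tRNA genes.
GTF3A, chr13:27424369-27424668 (+ strand): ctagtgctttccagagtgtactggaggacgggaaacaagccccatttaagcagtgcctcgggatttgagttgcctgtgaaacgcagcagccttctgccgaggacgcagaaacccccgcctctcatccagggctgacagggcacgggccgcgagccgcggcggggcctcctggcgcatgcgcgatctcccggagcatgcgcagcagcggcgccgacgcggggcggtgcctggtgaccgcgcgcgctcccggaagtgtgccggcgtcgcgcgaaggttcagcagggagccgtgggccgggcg
POLR3C, chr1:145823950-145824249 (+ strand): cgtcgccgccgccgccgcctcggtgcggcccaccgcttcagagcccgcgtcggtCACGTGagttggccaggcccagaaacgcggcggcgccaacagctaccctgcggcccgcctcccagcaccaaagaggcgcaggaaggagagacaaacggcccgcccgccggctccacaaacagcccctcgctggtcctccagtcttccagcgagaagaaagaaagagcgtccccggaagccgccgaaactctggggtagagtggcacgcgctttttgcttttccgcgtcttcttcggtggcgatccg
POLR1G, chr19:45406394-45406693 (+ strand): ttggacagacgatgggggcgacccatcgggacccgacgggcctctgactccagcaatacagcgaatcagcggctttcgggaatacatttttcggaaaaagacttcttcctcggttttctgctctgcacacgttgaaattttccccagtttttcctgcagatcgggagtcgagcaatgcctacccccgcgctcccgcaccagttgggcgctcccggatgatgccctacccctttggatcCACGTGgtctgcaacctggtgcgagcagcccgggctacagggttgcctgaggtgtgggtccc
POLR3E, chr16:22297159-22297458 (+ strand): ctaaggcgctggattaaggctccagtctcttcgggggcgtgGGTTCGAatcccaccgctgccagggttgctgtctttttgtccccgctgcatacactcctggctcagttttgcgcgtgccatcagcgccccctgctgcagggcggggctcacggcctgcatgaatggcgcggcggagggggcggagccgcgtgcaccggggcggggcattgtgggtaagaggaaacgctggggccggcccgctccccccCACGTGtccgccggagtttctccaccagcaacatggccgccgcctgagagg
Searched on both strands, CACGTG was in 7 of 29 promoters of measured members that the table held (24.1%) and in 8.88% of 15842 promoters of protein-coding genes. Among members that fell it was in 1 of 11, among those that rose in 2 of 6 and among those not called in 4 of 12. Of the 13 members that fell, POLR1E (-1.0) and POLR3G (-1.23) had no promoter sequence here and were not searched. It was 196 bases before the start in POLR3C, 12 bases before it in POLR1G and directly at it in POLR3E, and these letters were not in the GTF3A window. The B box core, a motif chosen after the sequences were seen, was in 3 of the 29 members' promoters (10.3%), those of POLR3E, TAF1C and GTF3C1, and in 1.0% of all coding promoters. A longer form of the B box, searched first, was in 2 of the 29 (6.9%), POLR3E and TAF1C, and in 0.196% of all coding promoters. In POLR3E the B box core lies inside TRL-AAG2-4, a leucine tRNA gene that RefSeq places just before the start of this polymerase III subunit gene. For TAF1C no other annotated gene was found there, and for GTF3C1 the protein-coding gene KATNIP, so neither match was in an annotated tRNA gene.

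With doxycycline the machinery moved in both directions, with more members lower than higher. In the limma fit over all probe sets, 13 of 34 members fell and 6 rose at an adjusted p under 0.05. Over all probe sets 17.2% fell and 20.9% rose (38.1% called in either direction), so the share of members that fell, 38.2%, was above that of all probe sets and the share that rose, 17.6%, was close to it. Most members, 31 of 34, had a mean signal at or above the median of all probe sets. A fit of only that brighter part called 5586 probe sets, a larger share than 38.1%, and called 12 members lower and 5 higher. Shares by direction were not taken there, so no share set against all probe sets in this report allows for signal. The groups did not overlap for 12 members that were lower and 3 that were higher, against 13.6% and 14.9% of all probe sets. The median log2 fold change over the members was -0.15, and over all probe sets it was 0.04. In bulk RNA, fewer cells of a kind and less RNA per cell cannot be told apart.

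**Figure D1:**
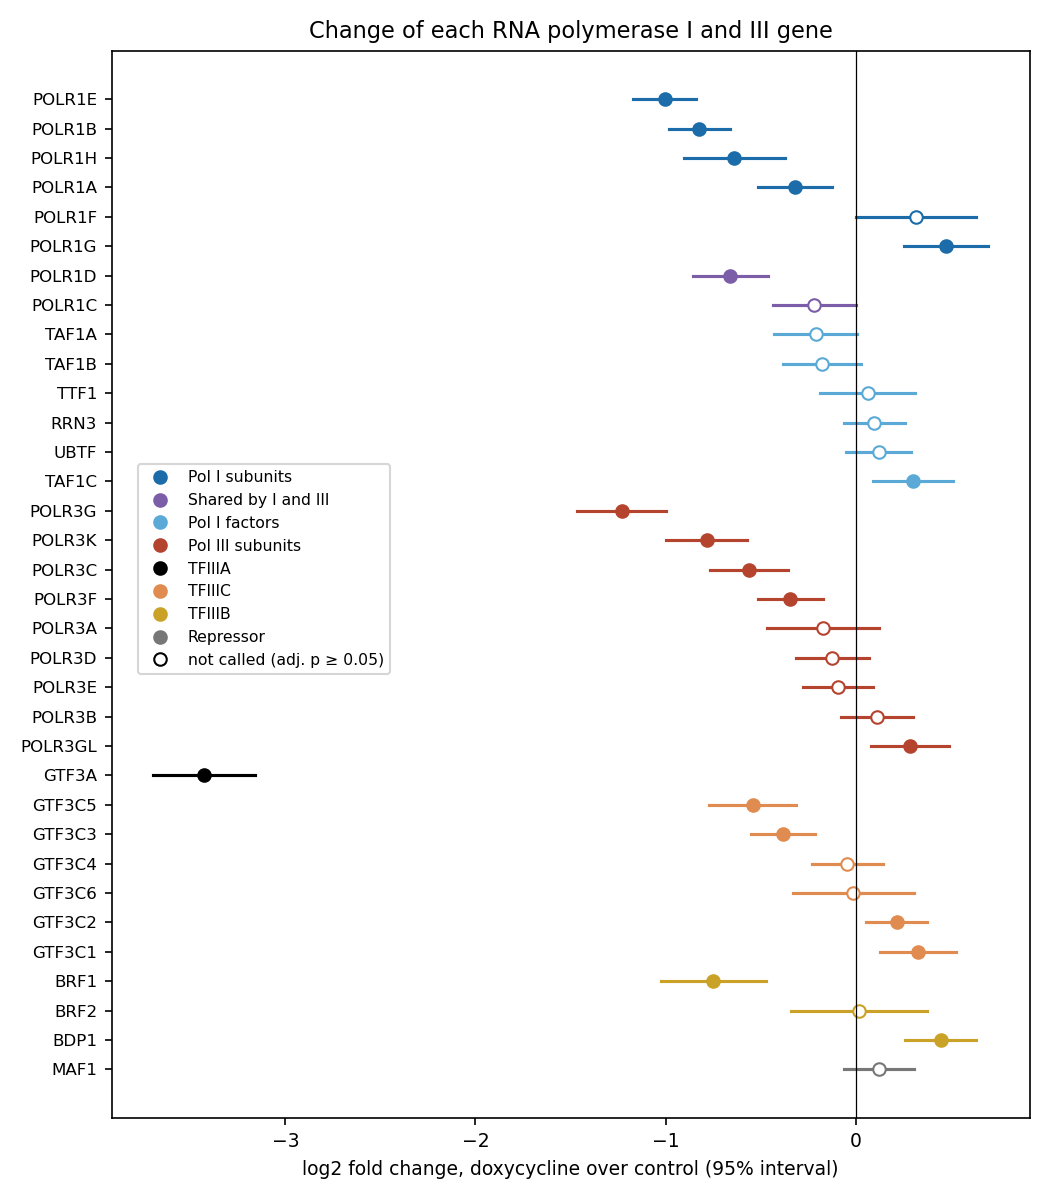
Log2 fold change of doxycycline over control for each of 34 genes (points, with 95% intervals of the limma fit, 5 arrays per group), grouped by role and coloured as in the key. Filled points passed an adjusted p of 0.05. GTF3A stands at -3.43, and the next lowest gene, POLR3G, at -1.23.

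GTF3A, which encodes the zinc finger protein TFIIIA, had the largest change. Its log2 signal was 8.93, 9.03, 9.12, 9.13 and 8.87 on the 5 control arrays and 5.58, 5.25, 5.87, 5.88 and 5.34 on the 5 doxycycline arrays. Every doxycycline array was more than 3 log2 units below the control mean of 9.01, and the groups did not come near each other. The fold change was -3.43 ± 0.12 (SE, n = 5 per group), 10.8-fold lower, at an adjusted p of 5.23e-11 in limma, which placed GTF3A 9th from the bottom of 18569 probe sets.

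The change of GTF3A was set against that of each of the 33 other members, as the per-array difference of log2 signals, in an exact two-sided permutation test over the 10 arrays. GTF3A had been singled out with its fall already known. In all 33 pairs GTF3A fell further, with a difference in change of -2.20 log2 units from POLR3G, the nearest, and of -3.90 from POLR1G, the farthest. Each pair reached an exact p of 0.00794, the smallest that splitting 10 arrays into 5 and 5 allows, and an adjusted p of 0.00794 over 35 pairs. All 33 tests share the GTF3A values, and the size of its fall made this outcome all but certain. They therefore restate the limma result and add no separate support. GTF3A lies on chromosome 13, and the genes on either side did not share a change of this size. RPL21 fell by 0.31 ± 0.09 (adjusted p = 0.0128), whereas RASL11A (0.04 ± 0.15), MTIF3 (-0.21 ± 0.09), whose annotated span overlaps GTF3A, and LNX2 (0.15 ± 0.17) did not pass.

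The 5S rRNA that TFIIIA starts is carried by a particle with ribosomal proteins. Of 4 measured genes for this particle and its handling, 0 rose (20.9% of all probe sets did) and 2 fell (50%, against 17.2%). These were RPF2 (-0.50 ± 0.09, adjusted p = 3.06e-04) and RRS1 (-0.28 ± 0.09, adjusted p = 0.0164), assembly factors that deliver the 5S particle to the large subunit. RPL11, a protein of the particle, had -0.08 ± 0.08, and HEATR3, which helps its import, had 0.14 ± 0.09, and neither passed.

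**Figure D2:**
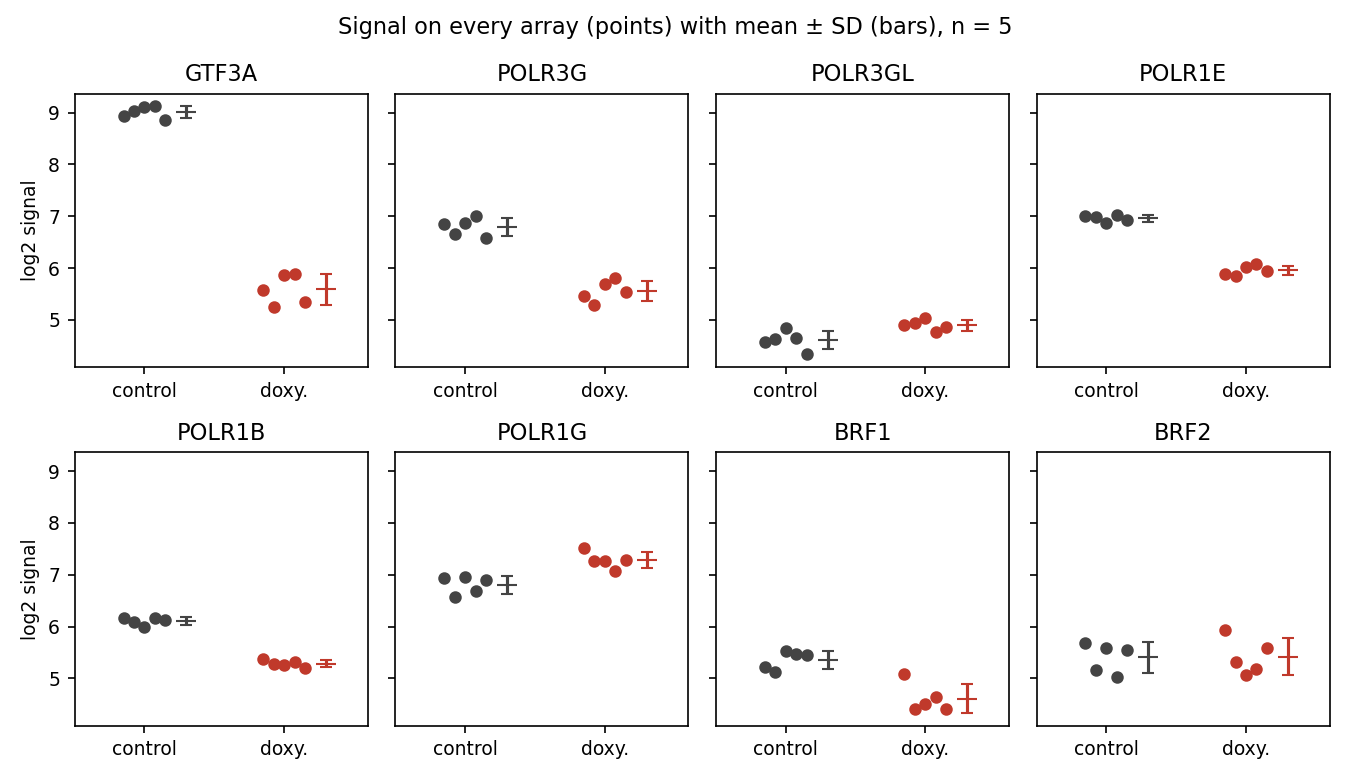
Log2 signal (y axis) of 8 genes on each control (grey) and doxycycline (red) array, with mean and SD of 5 arrays beside the points. GTF3A falls from 9.01 to 5.59, POLR3G by 1.23 and POLR1E by 1.0 units, and BRF2 overlaps between the groups.

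The subunits that only polymerase I uses mostly fell, while none of its measured factors, which include the terminator-binding TTF1, was called lower. Of 6 such subunits 4 fell (66.7%, against 17.2% of all probe sets) and 1 rose (16.7%, against 20.9%), with a median of -0.48, and of 6 measured factors 0 fell and 1 rose in limma, with a median of 0.08. At an unadjusted p under 0.05 the count of factors lower was also 0. The factors called made up 0% lower and 16.7% higher, against 17.2% and 20.9% of all probe sets. This contrast between subunits and factors is a description of short lists and was not tested.

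POLR1E, which forms a heterodimer with POLR1G on the body of the enzyme, fell most. Its signal was 7.01, 6.98, 6.87, 7.02 and 6.92 in control and 5.88, 5.85, 6.01, 6.08 and 5.95 with doxycycline. The groups lay far apart and each was tight, and the change was -1.0 ± 0.08 (adjusted p = 7.57e-08), 2.01-fold lower. Its partner POLR1G had 6.93, 6.56, 6.96, 6.68 and 6.90 in control and 7.51, 7.26, 7.27, 7.07 and 7.28 with doxycycline, higher on every doxycycline array. It rose by 0.47 ± 0.10 (adjusted p = 0.00183). The annotated span of POLR1G overlaps ERCC1, which fell by 0.42 ± 0.08 (adjusted p = 7.88e-04), so the overlapping genes moved in opposite directions.

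POLR1B, the second-largest subunit and part of the catalytic centre, had 6.17, 6.08, 5.98, 6.16 and 6.13 in control and 5.37, 5.28, 5.26, 5.31 and 5.19 with doxycycline. The groups did not overlap, and the fall was -0.82 ± 0.08 (adjusted p = 4.81e-07), 1.77-fold. POLR1H, the subunit for RNA cleavage, fell by 0.64 ± 0.12 (adjusted p = 7.57e-04), with control arrays between 5.98 and 6.64 and doxycycline arrays between 5.52 and 5.90. PPP1R11, whose span overlaps POLR1H, had -0.16 ± 0.11 and was not called. POLR1A, the largest subunit, fell by 0.32 ± 0.09 (adjusted p = 0.0111), and doxycycline array 2 (6.46) overlapped the lowest control array (6.44).

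POLR1F, the stalk subunit that RRN3 contacts, depended on 1 array. Its signal was 6.93, 6.99, 6.88, 6.67 and 6.99 in control and 6.54, 7.37, 7.34, 7.44 and 7.35 with doxycycline, so array 1 was below every control array and the other 4 above all of them. Over all arrays the change was 0.32 ± 0.15 and was not called (adjusted p = 0.112). Without doxycycline array 1 it was 0.48 (adjusted p = 4.07e-04).

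The polymerase I factors showed small changes. TAF1C, an SL1 subunit, rose by 0.30 ± 0.10 (adjusted p = 0.0242), a call that was lost without control array 2 (adjusted p = 0.0689), control array 3 (0.0547), doxycycline array 2 (0.0626) or doxycycline array 5 (0.0553). The other SL1 subunits TAF1A (-0.21 ± 0.10) and TAF1B (-0.18 ± 0.10) did not pass. TAF1A was called without doxycycline array 4, at -0.28 (adjusted p = 0.0303). UBTF, which opens ribosomal DNA, had 0.12 ± 0.08, with a 95% interval from -0.05 to 0.29, and RRN3 had 0.10 ± 0.08, from -0.06 to 0.26. TTF1, which binds the terminator, had 0.06 ± 0.12. Without doxycycline array 1, TTF1 had 0.16 and TAF1B -0.11, both still not called. RRN3 has transcribed pseudogenes on chromosome 16, with which its probes could share signal. Other members, among them GTF3A, POLR3G and POLR3K, have pseudogenes that are not annotated as transcribed. Sharing of signal with any pseudogene was not tested. PDXDC1, whose span overlaps RRN3, rose by 0.34 ± 0.09 (adjusted p = 0.00490).

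POLR1C and POLR1D form a shared assembly platform of both enzymes. POLR1D was 7.45, 7.38, 7.48, 7.58 and 7.26 in control and 6.93, 6.80, 6.74, 6.54 and 6.84 with doxycycline, with no overlap, and fell by 0.66 ± 0.09 (adjusted p = 3.79e-05), while LNX2, whose span overlaps it, did not pass. POLR1C changed by -0.22 ± 0.10 and did not pass (adjusted p = 0.111), but was called without doxycycline array 1 at -0.28 (adjusted p = 0.0370). XPO5, whose annotated span overlaps POLR1C, fell by 2.33 ± 0.13 (adjusted p = 3.04e-09), a far larger change than that of POLR1C.

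Among the 9 listed polymerase III subunits, 4 fell (44.4%, against 17.2% of all probe sets) and 1 rose (11.1%, against 20.9%), with a median of -0.17. Those that fell were in the trimer of POLR3C, POLR3F and POLR3G, which opens the promoter, and in POLR3K, the cleavage subunit. POLR3K was lower by 0.79 ± 0.10 (adjusted p = 1.49e-05), POLR3C by 0.56 ± 0.10 (adjusted p = 2.39e-04) and POLR3F by 0.35 ± 0.08 (adjusted p = 0.00287), and the groups overlapped for none of these 3. The catalytic subunits POLR3A (-0.17 ± 0.14) and POLR3B (0.11 ± 0.09) and the heterodimer of POLR3D (-0.12 ± 0.09) and POLR3E (-0.09 ± 0.09) did not pass. POLR3D was 8.15 to 8.19 on 4 doxycycline arrays and 8.53 on array 1. Without that array the change of POLR3D was -0.19 (adjusted p = 0.0538), that of POLR3A -0.06 (adjusted p = 0.734) and that of POLR3E -0.05 (adjusted p = 0.688), none of them called.

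POLR3G and POLR3GL are paralogs that take the same place in the enzyme, POLR3G being known from stem and tumour cells and POLR3GL from differentiated tissue. POLR3G was 6.85, 6.65, 6.88, 7.0 and 6.59 in control and 5.47, 5.30, 5.69, 5.80 and 5.54 with doxycycline, with a wide gap between the groups. It fell by 1.23 ± 0.11 (adjusted p = 3.79e-07), 2.35-fold. POLR3GL was 4.58, 4.64, 4.84, 4.66 and 4.35 in control and 4.89, 4.94, 5.04, 4.76 and 4.86 with doxycycline, a small upward shift in which 1 control array overlapped the doxycycline range.

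POLR3GL rose by 0.29 ± 0.10 (adjusted p = 0.0280). The call was lost without control array 1 (adjusted p = 0.0573), control array 5 (0.0726), doxycycline array 2 (0.0553) or doxycycline array 3 (0.0744). The change of POLR3G minus that of POLR3GL was -1.52 log2 units, with per-array differences of 2.18 ± 0.15 in control and 0.66 ± 0.25 with doxycycline (SD, n = 5), and it passed an exact two-sided permutation test (p = 0.00794, adjusted p = 0.00794 over 35 pairs). MBLAC2, whose annotated span overlaps POLR3G, also fell by 1.11 ± 0.12 (adjusted p = 2.23e-06), and whether the probes of each read the other was not tested.

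TFIIIC genes changed in opposite directions. By homology, GTF3C3, GTF3C5 and GTF3C6 belong to the lobe that contacts the A box and TFIIIB, and GTF3C1, GTF3C2 and GTF3C4 to the lobe that binds the B box. In the first lobe GTF3C5 (-0.54 ± 0.11, adjusted p = 8.42e-04) and GTF3C3 (-0.38 ± 0.08, adjusted p = 0.00116) fell without overlap of the groups, and GTF3C6 (-0.01 ± 0.15) did not pass. In the other lobe GTF3C1 rose by 0.33 ± 0.09 (adjusted p = 0.0126), with control arrays from 6.71 to 7.18 and doxycycline arrays from 7.12 to 7.31, and GTF3C4 had -0.04 ± 0.09. Without doxycycline array 1, GTF3C4 had -0.08 and GTF3C6 0.0076, again not called. GTF3C2 rose by 0.21 ± 0.08 (adjusted p = 0.0357), a call lost in 7 of the 10 fits that left out 1 array, with adjusted p up to 0.0986 (without control array 3). The difference between the lobes was noticed in these values and was not tested.

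TFIIIB is built from TBP, BDP1 and either BRF1, used at tRNA and 5S genes, or BRF2, used at U6-type promoters. BRF1 was 5.21, 5.13, 5.52, 5.46 and 5.46 in control and 5.08, 4.41, 4.51, 4.63 and 4.40 with doxycycline, lower on every doxycycline array although array 1 was close to the control range. It fell by 0.75 ± 0.13 (adjusted p = 2.68e-04). BRF2 was 5.69, 5.16, 5.59, 5.03 and 5.55 in control and 5.94, 5.32, 5.06, 5.17 and 5.59 with doxycycline, with full overlap and the widest error of all members (0.02 ± 0.17, adjusted p = 0.958). Without doxycycline array 1 its change was -0.12 (adjusted p = 0.588).

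The change of BRF1 minus that of BRF2 was -0.76 log2 units (exact two-sided permutation test, p = 0.00794, adjusted p = 0.00794 over 35 pairs), with per-array differences of -0.05 ± 0.32 in control and -0.81 ± 0.27 with doxycycline (SD, n = 5). BTBD6 (-1.16 ± 0.13, adjusted p = 4.13e-06) and PACS2 (-0.32 ± 0.11, adjusted p = 0.0296), whose spans overlap BRF1, fell too. BTBD6 fell by more than BRF1, and whether the probes of these genes share signal was not tested. BDP1 rose by 0.45 ± 0.09 (adjusted p = 7.50e-04), from 6.52 to 6.71 in control to 6.85 to 7.24 with doxycycline. TBP, shared by all nuclear polymerases, had -0.07 ± 0.09. MAF1, the repressor that holds polymerase III off TFIIIB when nutrients are short, had 0.12 ± 0.08 (95% interval -0.06 to 0.30) and did not pass.

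**Figure D3:**
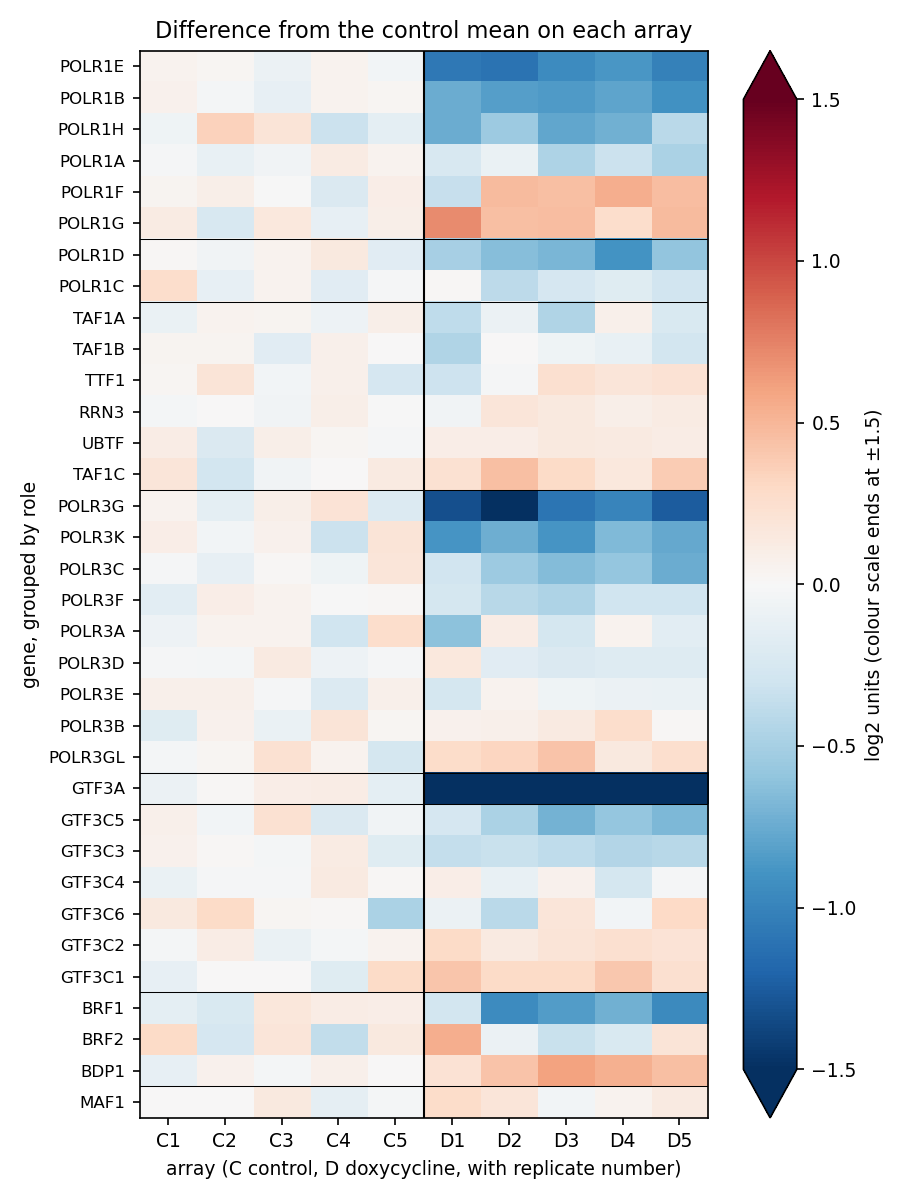
Difference of each array (columns, C control and D doxycycline) from the control mean, in log2 units, for 34 genes (rows, grouped by role between the lines), with colours ending at ±1.5. GTF3A is beyond the scale on all 5 doxycycline arrays, and POLR1F is lower on doxycycline array 1 and higher on the other 4.

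By enzyme, the genes of polymerase I (subunits and factors without the shared ones, 12 measured) had a median of -0.06, with 4 lower and 2 higher. Those of polymerase III (subunits, TFIIIC and TFIIIB, 18 measured, without GTF3A and MAF1) had a median of -0.11, with 7 lower and 4 higher. As shares, 33.3% of polymerase I genes and 38.9% of polymerase III genes fell, against 17.2% of all probe sets, and 16.7% and 22.2% rose, near the 20.9% of all probe sets. The polymerase I median lay close to 0 and changed sign under some settings, among them leaving out doxycycline array 1 (0.00703), so no order between the enzymes is read from these medians.

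Some subunits with a direct counterpart in the other enzyme were also compared, in a family of 3 exact two-sided permutation tests chosen by structure after the values were known. Other subunits, such as the heterodimers of POLR1E with POLR1G and of POLR3D with POLR3E, were not compared in this way. POLR1B fell by more than its counterpart POLR3B, with a difference of -0.93 log2 units (exact p = 0.00794, adjusted p = 0.0238). The largest subunits POLR1A and POLR3A differed in change by -0.15 (exact p = 0.413, adjusted p = 0.413), with SDs of the per-array differences of 0.26 in control and 0.30 with doxycycline. Without doxycycline array 1 that difference was -0.28 (exact permutation test, adjusted p = 0.0714). The cleavage subunits POLR1H and POLR3K, which both fell, differed by 0.15 (exact p = 0.317, adjusted p = 0.413), with SDs of 0.27 and 0.15. The last 2 tests do not show that these subunits changed alike.

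**Figure D4:**
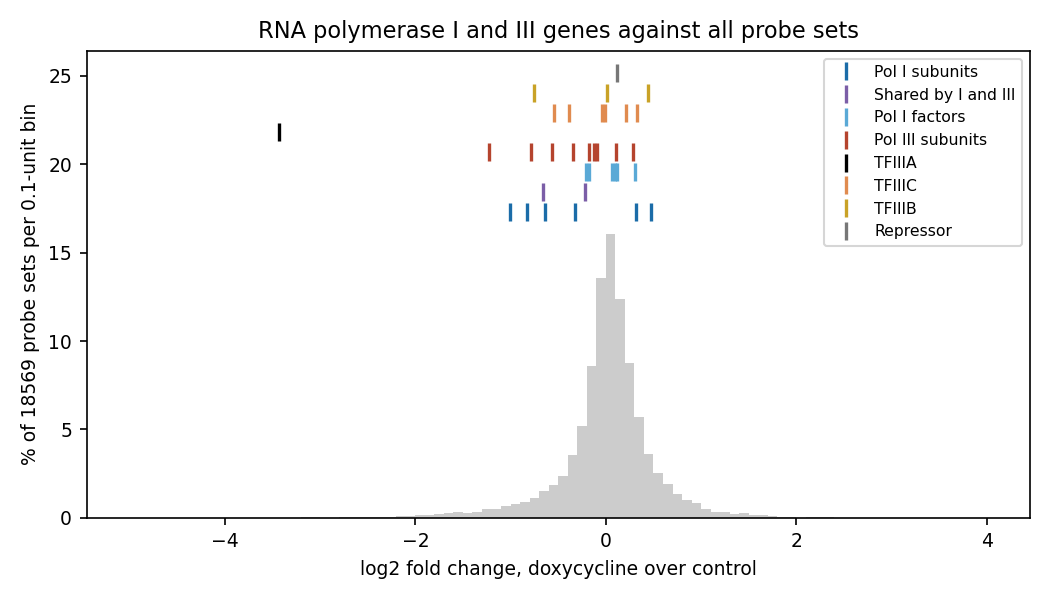
Distribution of log2 fold changes (x axis) over all 18569 probe sets (grey bars, % per 0.1-unit bin), with a tick for each of 34 genes above it, 1 row per role. Most ticks lie within the central peak, and the ticks of GTF3A (-3.43), POLR3G (-1.23) and POLR1E (-1.0) lie to its left.

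Other genes of the same pathways give the setting. Their calls are read against 17.2% of all probe sets lower and 20.9% higher. Of 4 measured subunits common to all nuclear polymerases POLR2H fell (-0.73 ± 0.10, adjusted p = 2.71e-05) and POLR2L rose (0.49 ± 0.10, adjusted p = 7.30e-04), 25% each way. Of 7 subunits specific to polymerase II, which makes mRNA, 28.6% fell and 14.3% rose. POLR2D (-0.41 ± 0.09) and POLR2I (-0.38 ± 0.10) fell and POLR2A, the largest, rose (0.54 ± 0.08). CRCP, another polymerase III subunit, had 0.19 ± 0.07 and did not pass (adjusted p = 0.0550). Of 7 measured genes for TBP and snRNA promoter factors 0 fell in limma, none at an unadjusted p under 0.05 either, and SNAPC5 rose (0.29 ± 0.08, adjusted p = 0.00962).

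Regulators of ribosomal DNA transcription were split, with 5 of 14 lower and 5 higher (35.7% each way, against 17.2% and 20.9% of all probe sets). Those that fell were the nucleolar proteins NOLC1 (-0.77 ± 0.10), TCOF1 (-0.73 ± 0.08), which supports UBTF, the helicase DDX21 (-0.52 ± 0.08), nucleolin NCL (-0.37 ± 0.09) and nucleophosmin NPM1 (-0.36 ± 0.09). Those that rose were the demethylases KDM2A (0.51 ± 0.08) and KDM2B (0.30 ± 0.11), the silencing factor BAZ2A (0.38 ± 0.09), the deacetylase SIRT7 (0.36 ± 0.09) and CAVIN1 (0.30 ± 0.09), which releases finished transcripts. A last list held 5 genes for the La protein, La-related proteins and a small RNA capping enzyme. The La gene SSB, whose product binds polymerase III transcripts, had -0.19 ± 0.10 and was not called. The La-related gene LARP4 rose (0.41 ± 0.09, adjusted p = 0.00154), and 0 of the 5 fell, also at an unadjusted p under 0.05.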

How the data were processed

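The authors deposited log2 expression values of 10 Clariom S arrays made with RMA, per the submitters' processing notes, which includes background correction and quantile normalization between arrays. Its version is not given in the sources used here. Quantile normalization sets every array to one distribution, and dim probes understate fold changes.

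Gene symbols came from the platform annotation (17511 of 18569 probe sets). Doxycycline (5 arrays) was compared with control (5 arrays) in R 4.3.3 with limma 3.58.1 (lmFit, eBayes), group as the only term, no filter, two-sided, with Benjamini-Hochberg adjustment over all probe sets, and called at adjusted p under 0.05. Changes of single pairs of genes were compared with exact permutation tests over arrays. The fit and the permutation test were tested on simulated data. Members, gene lists and tests were chosen with earlier results of these data known. All members are named, and other genes by size of change among called genes of each list, as neighbours of GTF3A, or, chosen after values were seen, as genes overlapping a member and as uncalled list genes. Values on all arrays are given for called members past 0.8 log2 units, for paralogs and for others chosen after values were seen. Same-numbered arrays of the groups correlated at -0.437 to -0.007 after removal of group means, so the numbers were not used as pairs. With 5 such pairs this does not settle whether same-numbered arrays shared a batch. Alternatives were signal filters, centring, repeated quantile normalization, variance prior, array weights, replicate block and leaving out each array. Counterpart subunits were paired after the data were seen.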

Additional observations from a re-analysis of the deposited data

Results flagged for a closer look

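In 4 of the 68 groups of 5 arrays formed by the 34 genes, 1 array stood apart from the other 4, by Dixon's ratio of its gap to the whole range. Chance flags about 1 in 20 such groups. For POLR1F, doxycycline array 1 (6.54) was far below the next array (7.34), with a ratio of 0.891. For POLR3D, the same array (8.53) was above the next (8.19), with a ratio of 0.892, and control array 3 (8.50) was above the next control array (8.36), with a ratio of 0.716. For TAF1B, control array 3 (5.56) was below the next (5.74), with a ratio of 0.732.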

How the results depend on the processing

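All 13 members that fell were called in every alternative in which they were tested (17 each, 16 for BRF1, which a signal filter removed), and 3 of the 6 that rose were (POLR1G, BDP1 and GTF3C1), whereas TAF1C, POLR3GL and GTF3C2 lost their call in some. GTF3A stayed between -3.50 and -3.35. Over the alternatives 12 to 14 members fell and 4 to 7 rose. The polymerase I median turned positive among probe sets above the median signal (0.0631) and with array weights (0.00229), and was -0.0885 to 0.00703 when 1 array was left out. The polymerase III median was -0.0737 with arrays centred and -0.142 to -0.0932 when 1 array was left out. The cause was not tested. Array weights also gave calls for POLR1F (0.40, adjusted p = 0.00734) and POLR1C (-0.28, adjusted p = 0.0247). With the replicate block 6476 probe sets were called against 7078, and 13 members fell and 4 rose, TAF1C (adjusted p = 0.0569) and GTF3C2 (adjusted p = 0.0909) losing their call. No array correlated best with its own number (0 of 10). GTF3A fell further than all 33 other members in every alternative run for that comparison, which the size of its fall made all but certain. The POLR1B difference from POLR3B stayed between -0.97 and -0.87 with 1 array left out. Centring moved the median of all probe sets from 0.04 to 0.08. Only 31 of 34 members passed the median signal filter, and without scanner files no signal could be set against its own background.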
